A study of Mus musculus with 6 samples.

Results

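The 10 genes described here mark macrophages and were followed through 6 mouse teratomas: Cd68, Adgre1, Csf1r, C1qa, C1qb, C1qc, Cd14, Mrc1, Itgam and Lyz2. They were chosen by name, as the array's gene names that equal these symbols, and are 10 of 22946 genes tested. Teratomas grow from pluripotent stem cells and hold several tissue types side by side. Here mouse embryonic stem cells were implanted under the skin of BALB/c nude mice, and 3 tumours received a microRNA negative control and 3 a miR-124a-3p mimic. Both were injected into the tumour with the carrier Atelogen QG at 15 µg in 100 µL every 3 days to day 28, from about 10 days after implantation, when tumours measured at least 100 mm3. Mice were randomised with 3 in each group. Each tumour was cut into 2 pieces, 1 of which gave the RNA for 1 array. The stem cell line, the age of the mice and the sequence of the negative control are not given in the sources used here.

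Macrophages are phagocytes that clear dying cells and debris, and they enter tumours from blood monocytes or persist there as resident cells. Their survival depends on the receptor Csf1r, they sense bacterial products through Cd14, and they are a main source of the complement protein C1q. Nude mice lack a working thymus and so most T cells, but they keep macrophages, monocytes and neutrophils. The array reads the RNA of the whole tissue piece. Fewer macrophages and less RNA per macrophage cannot be told apart, nor can RNA of the host and of the implanted cells.

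All 10 genes were well above background on all 6 arrays. Detection alone does not say which cells made the RNA, as Cd14, Itgam, Mrc1 and Lyz2 are also made by other cells. Of their 18 probes, 15 passed the filter on dim signal and 3 did not. All 6 arrays lay on 1 slide and in 1 scan. Control tumours lay in row 1 and miR-124a tumours in row 2, so group and row cannot be told apart. The 75th percentile of intensity ran from 197.8 to 223.1, and 63.4% to 65.9% of probes were well above background. Levels are given as log2 of the signal relative to this percentile of the array, and a fold change is the miR-124a mean over the control mean. A level belongs to its probe and is not comparable between genes.

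None of the 10 genes rose or fell with the mimic (limma, adjusted p under 0.05; 0 also at an unadjusted p under 0.05). Over all genes tested, 3.18% passed the adjusted threshold and 27.1% the unadjusted one. Their log2 fold changes ran from -0.32 for Cd14 to 0.06 for C1qc, with a median of -0.05, beside a median of -0.00072 over all genes. The values of the groups overlapped in all 10 genes, whereas for 35.4% of all genes they did not overlap (20.2% lower and 15.1% higher with miR-124a). The median size of the log2 fold change was 0.06 over these genes and 0.22 over all genes. The 95% interval of the fold change lay within 2-fold either way for all 10 genes and within 1.5-fold for 9, the exception being Cd14. These intervals are not adjusted for the number of genes.

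**Figure D1:**
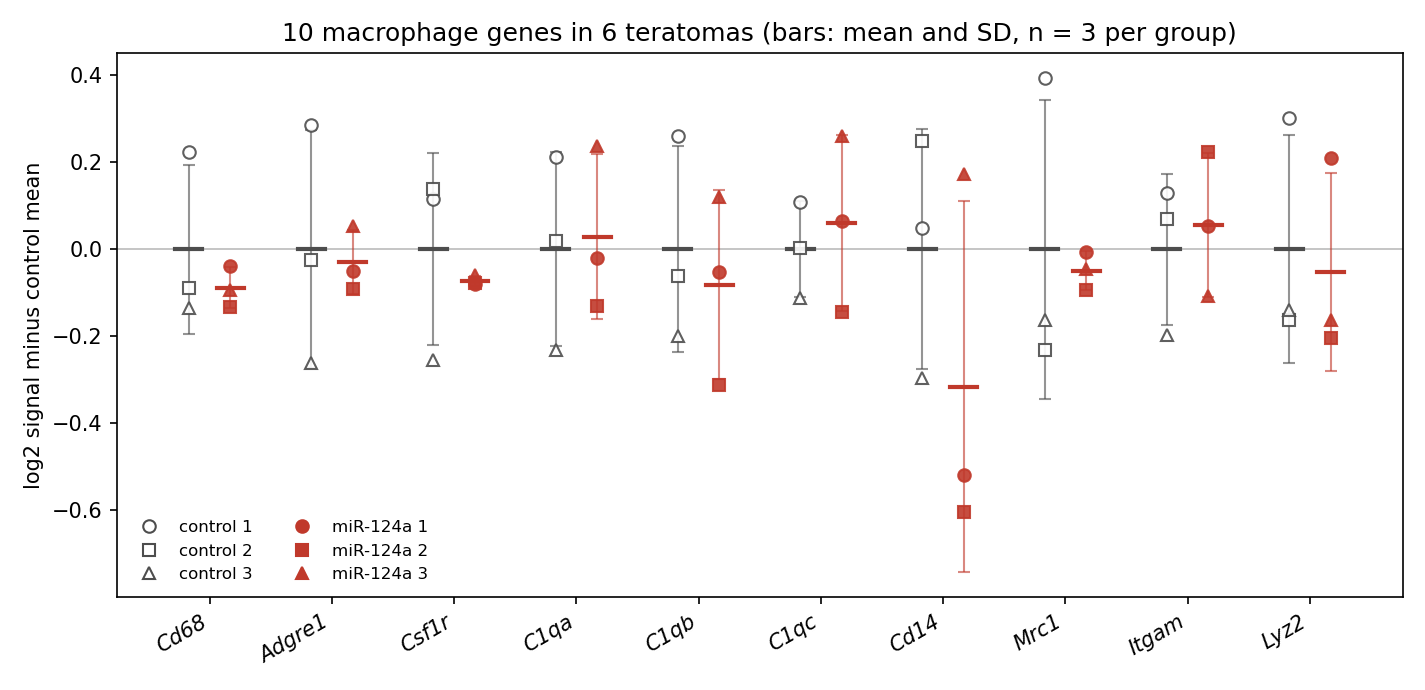
Signal of the 10 macrophage genes in each tumour, on the vertical axis as log2 signal minus the control mean of the gene; open symbols are control and filled symbols miR-124a tumours, bars give the mean and SD (n = 3 per group). Control and miR-124a values overlap in all 10 genes, and control 1 lies above and control 3 below the control mean in each of them.

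Csf1r, the receptor for the growth factors that keep macrophages alive, had log2 levels of 3.44, 3.46 and 3.07 in control 1, 2 and 3 and of 3.24, 3.24 and 3.26 in miR-124a 1, 2 and 3. The miR-124a tumours lay close together, inside the range of the controls. The log2 fold change was -0.07 ± 0.13 (SE, n = 3 per group) with a 95% interval of -0.38 to 0.24 (limma, adjusted p = 0.743). A dimmer Csf1r probe gave 0.00011 ± 0.09. Its ligand Csf1 had a log2 fold change of -0.09 ± 0.09, and the other ligand, Il34, of 0.16 ± 0.19; neither passed (limma, adjusted p = 0.572 and 0.617). None of 7 tested genes of myeloid growth factor signalling passed, 1 did at an unadjusted p under 0.05, and their median was 0.13. The smallest p among them belonged to Csf2ra, a receptor chain for granulocyte-macrophage colony-stimulating factor, at 0.36 ± 0.10 (adjusted p = 0.101). Its levels of 2.61, 2.81 and 2.71 in the miR-124a tumours lay above those of 2.42, 2.40 and 2.24 in the controls.

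Adgre1, which encodes the surface protein F4/80 used to stain mouse macrophages, stood at 1.16, 0.85 and 0.61 in control 1 to 3 and at 0.82, 0.78 and 0.93 in miR-124a 1 to 3. The miR-124a values again lay between the lowest and the highest control. The difference was -0.03 ± 0.15 on the log2 scale, with an interval of -0.40 to 0.34 (limma, adjusted p = 0.917). The probe lies on chromosome 17 from 57622843 to 57622902 (build mm9, as for all probe positions here). A second Adgre1 probe was well above background in 1 miR-124a tumour and 0 control tumours and was not tested.

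Cd68, a glycoprotein of phagocyte lysosomes, had levels of 2.43, 2.12 and 2.08 in the controls and of 2.17, 2.08 and 2.12 in the miR-124a tumours. Control 1 was the highest, and the other 5 tumours lay within a narrow band. The log2 fold change was -0.09 ± 0.12 with an interval of -0.38 to 0.20 (limma, adjusted p = 0.664). The probe lies on chromosome 11 from 69477775 to 69477834. The 2 other Cd68 probes gave -0.05 ± 0.13 and 0.03 ± 0.32, the last from a dim probe. Lyz2, the lysozyme of macrophages and other myeloid cells, also made by alveolar type 2 cells, had 6.38, 5.92 and 5.94 in the controls and 6.29, 5.88 and 5.92 in the miR-124a tumours. The probe lies on chromosome 10 from 116714450 to 116714509. Here the first tumour of each group was the highest, and the groups overlapped. The log2 fold change was -0.05 ± 0.18 (limma, adjusted p = 0.871), and the second Lyz2 probe gave 0.12 ± 0.22. Lyz1, a closely related lysozyme, was read by a probe that matched the Lyz2 probes at no more than 22 bases without gaps. Probes were compared only with each other and not with the other gene's transcript. Whether a probe also reads the other lysozyme was therefore not tested. Lyz1 had a log2 fold change of -0.01 ± 0.18 (limma, adjusted p = 0.981). The summed signal of 7 alveolar genes ran from 24.1 to 29.9 in controls and from 28.7 to 32.2 in miR-124a tumours, in units of the 75th percentile; its part in the Lyz2 value was not tested. Of 16 genes of lysosomal proteins none passed, 2 did at an unadjusted p under 0.05, and 14 had values below 0 at a median of -0.08. With quantile scaling 9 of the 16 lay above 0, at a median of 0.04, so the direction of the list is not settled across scalings. Whichever tumour was left out, its median stayed below 0, from -0.12 to -0.03. Cd63, a membrane protein of late endosomes, had the smallest p (-0.41 ± 0.11, limma, adjusted p = 0.0863).

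The 3 chains of C1q, the recognition protein that starts the classical complement pathway, are encoded next to each other on chromosome 4 and assemble into 1 protein. C1qa had levels of 2.03, 1.84 and 1.59 in the controls and of 1.80, 1.69 and 2.06 in the miR-124a tumours. C1qb had 0.93, 0.60 and 0.47 in the controls and 0.61, 0.35 and 0.78 in the miR-124a tumours. C1qc had 3.03, 2.93 and 2.81 in the controls and 2.99, 2.78 and 3.19 in the miR-124a tumours. In all 3 genes control 1 exceeded control 2 and control 2 exceeded control 3, and miR-124a 3 was the highest and miR-124a 2 the lowest of its group. Their log2 fold changes were 0.03 ± 0.16, -0.08 ± 0.17 and 0.06 ± 0.13, with intervals of -0.35 to 0.41, -0.49 to 0.32 and -0.26 to 0.38 (limma, adjusted p = 0.920, 0.779 and 0.795). The probes lie from 136452409 to 136452468, from 136436578 to 136436637 and from 136445766 to 136445825. Over the 6 tumours, Pearson's r was 0.90 between C1qa and C1qb, 0.91 between C1qa and C1qc and 0.84 between C1qb and C1qc, which is a description of 6 points that share arrays.

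Of 17 other complement genes none passed, 2 did at an unadjusted p under 0.05, and the median was 0.0033. These were Cfi, a protease that inactivates C3b and C4b, at -0.80 ± 0.22, and C4b, a component cleaved after C1 activation, at 0.64 ± 0.18 (limma, adjusted p = 0.0936 and 0.0949). C4b is closely similar to its neighbour C4a, so its signal may hold both. C4b stood at 3.33, 2.88 and 2.91 in the controls and at 3.85, 3.41 and 3.79 in the miR-124a tumours, with no overlap.

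Mrc1, the mannose receptor of tissue macrophages and of some endothelial cells, had levels of 1.16, 0.53 and 0.60 in the controls and of 0.76, 0.67 and 0.72 in the miR-124a tumours. Control 1 was the highest, and the miR-124a tumours differed among themselves by 0.09. The log2 fold change was -0.05 ± 0.18 with an interval of -0.48 to 0.38 (limma, adjusted p = 0.878). The probe lies on chromosome 2 from 14253273 to 14253332. Genes that interleukin 4 induces in mouse macrophages were described with it. None of 12 tested passed, 3 did at an unadjusted p under 0.05, and 11 had values below 0 at a median of -0.23. Without control 1 the median was -0.089 with 7 below 0, without control 2 it was -0.42 and without miR-124a 3 it was -0.49. Tgm2, a transglutaminase, had the smallest p at -0.92 ± 0.26, followed by Il4ra, the interleukin 4 receptor chain, at -0.61 ± 0.22 (adjusted p = 0.0990 and 0.152). Both are made by many other cell types.

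Itgam, the alpha chain of the complement receptor CR3 on macrophages, monocytes and neutrophils, had levels of 3.83, 3.77 and 3.50 in the controls and of 3.75, 3.92 and 3.59 in the miR-124a tumours. The highest of all was miR-124a 2, the tumour in which 4 of the 10 genes were lowest. The log2 fold change was 0.06 ± 0.14 with an interval of -0.27 to 0.38 (limma, adjusted p = 0.815). The probe lies on chromosome 7 from 135261755 to 135261814, and a second probe was well above background on 1 array and was not tested. Itgb2, the beta chain that pairs with Itgam, had 0.09 ± 0.20 (adjusted p = 0.788). Itgb2 was chosen after its value was seen. Of 9 tested genes of integrin chains, their ligands and linked proteins none passed. With trend and robust estimation 2 did, and 2 with normexp and quantile scaling. At an unadjusted p under 0.05 there were 2. Itgb1, a different integrin beta chain, had -0.54 ± 0.11. Tln1, which links integrins to actin, had -0.49 ± 0.10 (limma, adjusted p = 0.0547 and 0.0591).

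Cd14, the surface protein that hands endotoxin to Toll-like receptor 4, differed most in size among the 10 genes. It had levels of 0.23, 0.42 and -0.12 in the controls and of -0.34, -0.43 and 0.35 in the miR-124a tumours. Tumours miR-124a 1 and 2 lay below all controls, while miR-124a 3 lay near the top. The log2 fold change was -0.32 ± 0.25 with an interval of -0.91 to 0.28, so a fall of up to 1.88-fold and a rise of up to 1.21-fold lie inside it (limma, adjusted p = 0.438). The second Cd14 probe gave -0.41 ± 0.25. Without miR-124a 3 the value was -0.56, without miR-124a 2 it was -0.17, and neither passed. Of 13 tested genes of endotoxin recognition and of other Toll-like receptors and their signalling none passed, and none did at an unadjusted p under 0.05. Tlr4 itself had -0.03 ± 0.09 (limma, adjusted p = 0.833).

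Neutrophils also make Cd14 and Itgam. The summed signal of 15 neutrophil genes on the array, in units of the 75th percentile, was 23.6, 42.7 and 31.8 in control 1 to 3 and 20.3, 13.1 and 32.9 in miR-124a 1 to 3. Across the 6 tumours Cd14 and this sum ran in nearly the same order (Spearman's rho of 0.94, as a description), with control 2 and miR-124a 3 at the top of both and miR-124a 2 at the bottom. Itgam did not follow the sum (rho of -0.49). None of 12 tested neutrophil genes passed, 2 did at an unadjusted p under 0.05, and 10 had values below 0 at a median of -0.36. Cxcr2, a chemokine receptor of neutrophils, had -1.49 ± 0.43 and Mmp8, a collagenase of their granules, -0.81 ± 0.23 (limma, adjusted p = 0.102 and 0.0962). Cxcr2 was well above background in all 3 control tumours and 1 miR-124a tumour. Another of the 12 genes was so in all 3 control and 0 miR-124a tumours. Both entered the test through the controls alone, which favours lower values with miR-124a. With probes required above background on all 6 arrays, 8 of 10 neutrophil genes lay below 0 at a median of -0.36. The defining marker Ly6g was among the 3 genes of the list that were not tested. Their part in the Cd14 value was not tested.

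**Figure D2:**
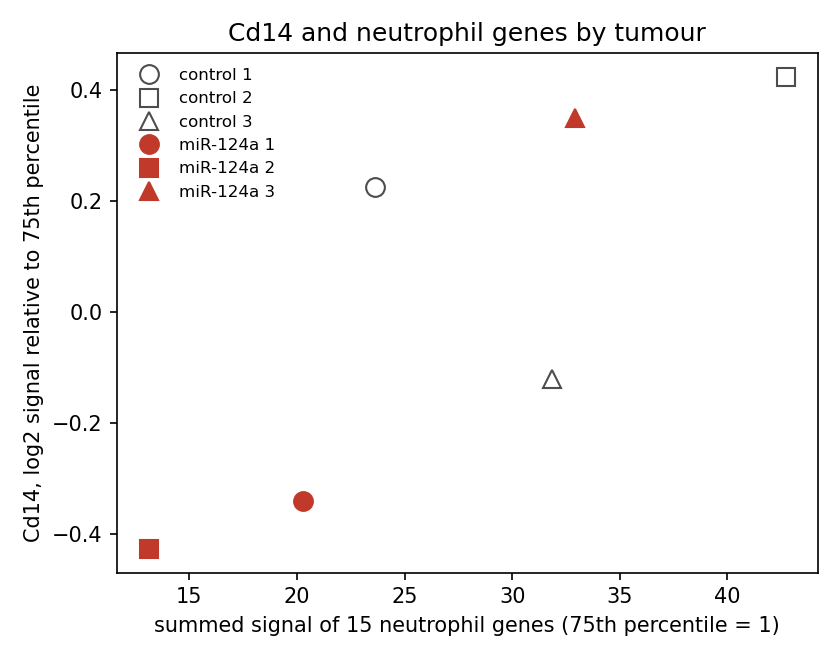
Cd14 level (vertical axis, log2 signal relative to the array's 75th percentile) against the summed signal of 15 neutrophil genes (horizontal axis, 75th percentile = 1), 1 point per tumour. miR-124a 1 and miR-124a 2 are low on both axes, and control 2 and miR-124a 3 are high on both.

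**Figure D3:**
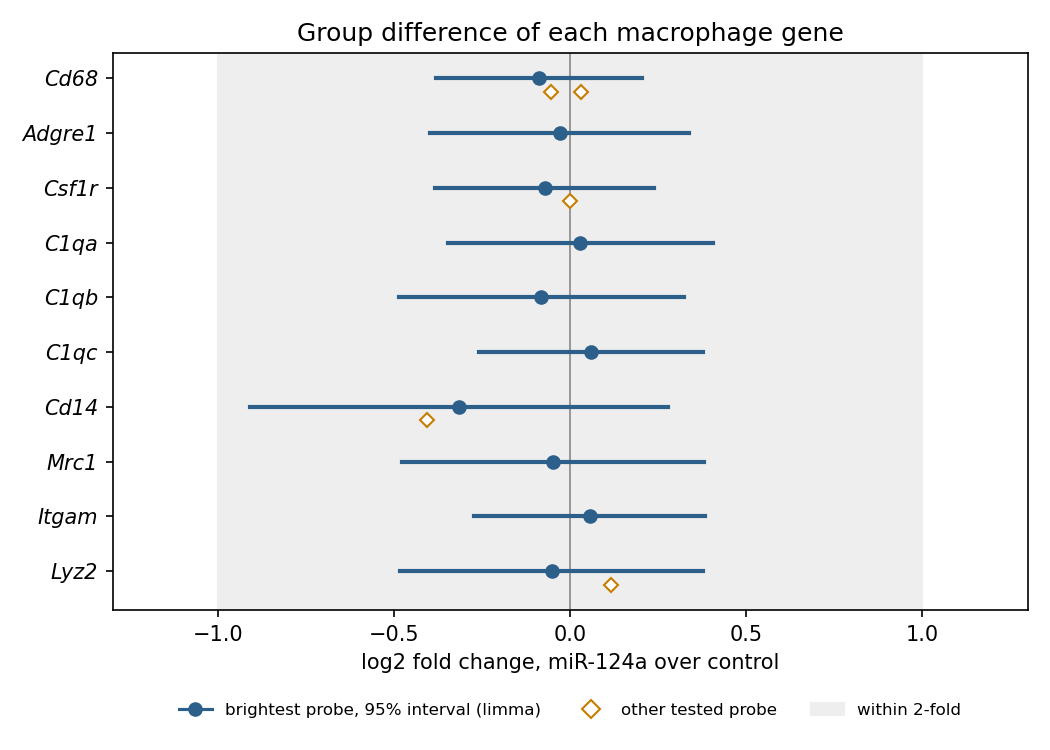
Log2 fold change of each macrophage gene, miR-124a over control; circles and lines give the brightest probe with its 95% interval from limma, diamonds other tested probes, and the shaded band marks changes within 2-fold. All 10 intervals lie inside the band and cross 0, and that of Cd14 reaches furthest, to -0.91.

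Tumours differed among themselves in a way shared by most of the 10 genes. Control 1 lay above the control mean in all 10 genes, at a median of 0.22 relative to it, and control 3 below it in all 10, at a median of -0.20. The miR-124a tumours had medians of -0.03, -0.13 and 0.0038 relative to the control mean. Control 1 was the highest tumour in 5 genes, control 3 the lowest in 5 and miR-124a 2 the lowest in 4. The 45 pairs of genes had a median r of 0.59 over the 6 tumours, from -0.26 for Cd14 with Itgam to 0.94 for Cd68 with Mrc1, and 4 pairs were below 0. The SD was smaller among miR-124a than among control tumours in 8 of the 10 genes (80.0%), and over all genes in 63.3%.

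The 8 genes whose levels over the 6 tumours were most like the mean standardised profile of these genes had r from 0.969 to 0.981. Of 22936 genes compared, 52 had an r of at least 0.9. Among the 8 were Ifi27l2a, an interferon-induced gene, Nckap1l, the hematopoietic subunit of an actin regulating complex, Arhgap25, Adap2, Cd300c2, Ephx1, an epoxide hydrolase, Vmn1r87 and an intergenic RNA without a symbol. Ifi27l2a spanned the widest range, with levels of 3.54, 2.98 and 2.27 in the controls and 2.86, 2.71 and 3.05 in the miR-124a tumours. Its control 1 was the highest and its control 3 the lowest of all 6.

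PU.1, encoded by Spi1, is the transcription factor that macrophages depend on, and it binds sites built around the letters GAGGAA. The Spi1 probe was well above background on 1 of 6 arrays and was not tested. Promoters of Adgre1, Csf1r, C1qa and Cd14 were not searched. RefSeq promoter entries (build GRCm38.p6) of the other 6 of the 10 genes were searched over the 250 bases before the start site. GAGGAA stood on either strand in 5 of these 6, Lyz2 being without it, and in 23.3% of 32851 promoters of that length. The letters TATAAA of the TATA box and TGACTCA of an AP-1 site were searched as well. TATAAA stood in none of the 6 and in 12.4% of all promoters. TGACTCA stood in Cd68 alone and in 4.46% of all promoters. The promoters of Cd68 and Mrc1, the pair with the highest r, and of the neighbours C1qb and C1qc are given here in lower case, 5′ to 3′ on the strand of the gene, with GAGGAA or its reverse complement TTCCTC in capitals. Mrc1 holds the letters 3 times and each of the others 1 time; a match is a description of the letters only. They lie at chr11:69666171-69666420 (minus strand), chr2:14229164-14229413 (plus), chr4:136886201-136886450 (minus) and chr4:136892915-136893164 (minus).
Cd68: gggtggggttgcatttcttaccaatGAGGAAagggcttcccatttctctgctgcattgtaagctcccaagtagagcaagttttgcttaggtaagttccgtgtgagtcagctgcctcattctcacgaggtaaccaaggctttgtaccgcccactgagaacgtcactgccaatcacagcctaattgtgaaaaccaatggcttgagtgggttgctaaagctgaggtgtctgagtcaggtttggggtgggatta
Mrc1: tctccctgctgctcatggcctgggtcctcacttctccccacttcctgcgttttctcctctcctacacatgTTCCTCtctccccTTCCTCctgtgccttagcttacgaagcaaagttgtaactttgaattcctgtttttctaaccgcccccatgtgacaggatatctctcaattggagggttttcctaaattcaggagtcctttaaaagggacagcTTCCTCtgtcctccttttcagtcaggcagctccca
C1qb: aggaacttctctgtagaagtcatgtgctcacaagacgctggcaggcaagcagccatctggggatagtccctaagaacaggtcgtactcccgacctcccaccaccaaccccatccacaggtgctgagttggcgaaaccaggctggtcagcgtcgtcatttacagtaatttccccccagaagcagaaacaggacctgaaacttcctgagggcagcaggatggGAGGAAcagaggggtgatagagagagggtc
C1qc: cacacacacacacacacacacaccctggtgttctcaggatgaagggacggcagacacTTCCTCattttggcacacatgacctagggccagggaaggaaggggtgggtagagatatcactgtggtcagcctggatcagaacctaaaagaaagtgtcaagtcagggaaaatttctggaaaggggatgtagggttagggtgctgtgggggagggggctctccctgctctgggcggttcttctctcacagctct

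Of 13 other tested transcription factors of macrophages 1 fell, Runx1, and 0 rose, against 2.68% of all genes lower and 0.501% higher (limma, adjusted p under 0.05). Runx1, a factor of blood cells that cartilage, muscle and skin cells also express, stood at 2.06, 2.07 and 1.84 in the controls and at 0.54, 0.51 and 1.28 in the miR-124a tumours. The groups did not overlap, and Runx1 fell by 1.22 ± 0.22 on the log2 scale (adjusted p = 0.0476). It did not pass without control 1, 2 or 3 (adjusted p = 0.0964, 0.132 and 0.0752), nor without miR-124a 1 or 2 (0.155 and 0.154), and passed without miR-124a 3 (0.0270). It also missed the threshold with no filter on dim probes, with the replicate block and with array weights (adjusted p = 0.106, 0.151 and 0.0758), in a range of 0.0255 to 0.155 over 15 alternatives. The next smallest p values were those of Cebpa at -0.58 ± 0.17 and Cebpb at -0.57 ± 0.19, which did not pass (adjusted p = 0.105 and 0.132). Skeletal muscle genes fell in the same tumours, 14 of 18 past the threshold with a median of -1.65, and their summed signal ran from 1386 to 2118 in controls and from 525.2 to 789.0 in miR-124a tumours. Of the 18, 8 passed without control 3, 1 with no filter on dim probes and 0 with the replicate block. Leaving out miR-124a 1 or 2, or control 1 or 2, also left 0. All 18 values stayed below 0 whichever tumour was left out, at medians of -1.88 to -1.50. Their part in the Runx1 value was not tested. Irf8, a factor of macrophage maturation named after its value was seen, had 0.01 ± 0.24 (limma, adjusted p = 0.978).

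A wider list of 40 macrophage genes behaved like the 10 in its counts. Of 37 tested none passed, 1 did at an unadjusted p under 0.05, 18 had values above and 19 below 0, and the median was -0.0037. Without control 1, 27 of 37 lay above 0 at a median of 0.18, and without miR-124a 2, 30 of 38 did at a median of 0.11. Marco, a scavenger receptor, had the smallest p, at 0.92 ± 0.18 (limma, adjusted p = 0.0537). It was well above background in 1 control and all 3 miR-124a tumours, at -4.59, -4.73 and -4.75 against -4.07, -3.40 and -3.83. Normexp background correction together with quantile scaling gave it 0.15. Cd33, Unc93b1, which carries Toll-like receptors to endosomes, and Ms4a7 followed at -0.38 ± 0.17, -0.29 ± 0.15 and 0.20 ± 0.11. None of 9 microglia genes passed, 1 did at an unadjusted p under 0.05, and the median was -0.18. Tmem119 was first among them at -0.50 ± 0.14 (adjusted p = 0.0962). None of 10 tested monocyte genes passed and none did at an unadjusted p under 0.05, at a median of 0.04. The same held for 11 chemokines that attract monocytes, at a median of -0.10. None of 8 tested genes of osteoclasts, bone resorbing cells of the macrophage lineage, passed, 1 did at an unadjusted p under 0.05, and all 8 lay below 0 at a median of -0.23. Without control 1 it was 6 of 9 tested, and without miR-124a 2 the median was -0.12. Among other cell types a teratoma can hold, none passed of 6 dendritic cell, 9 lymphocyte, 12 endothelial, 10 fibroblast and 12 neural genes tested. At an unadjusted p under 0.05 there were 0, 1, 2, 4 and 3. Over all genes 3.18% and 27.1% passed these thresholds. All 12 neural genes lay above 0 at a median of 0.28. Of the fibroblast genes 7 lay below 0 at a median of -0.42, or -0.21 with quantile scaling. The dendritic cell, lymphocyte and endothelial medians were 0.15, -0.0070 and -0.07. Of 9 mast cell genes 5 were tested, 3 of them well above background in 2 control and all 3 miR-124a tumours, and none passed, nor did any at an unadjusted p under 0.05.

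**Figure D4:**
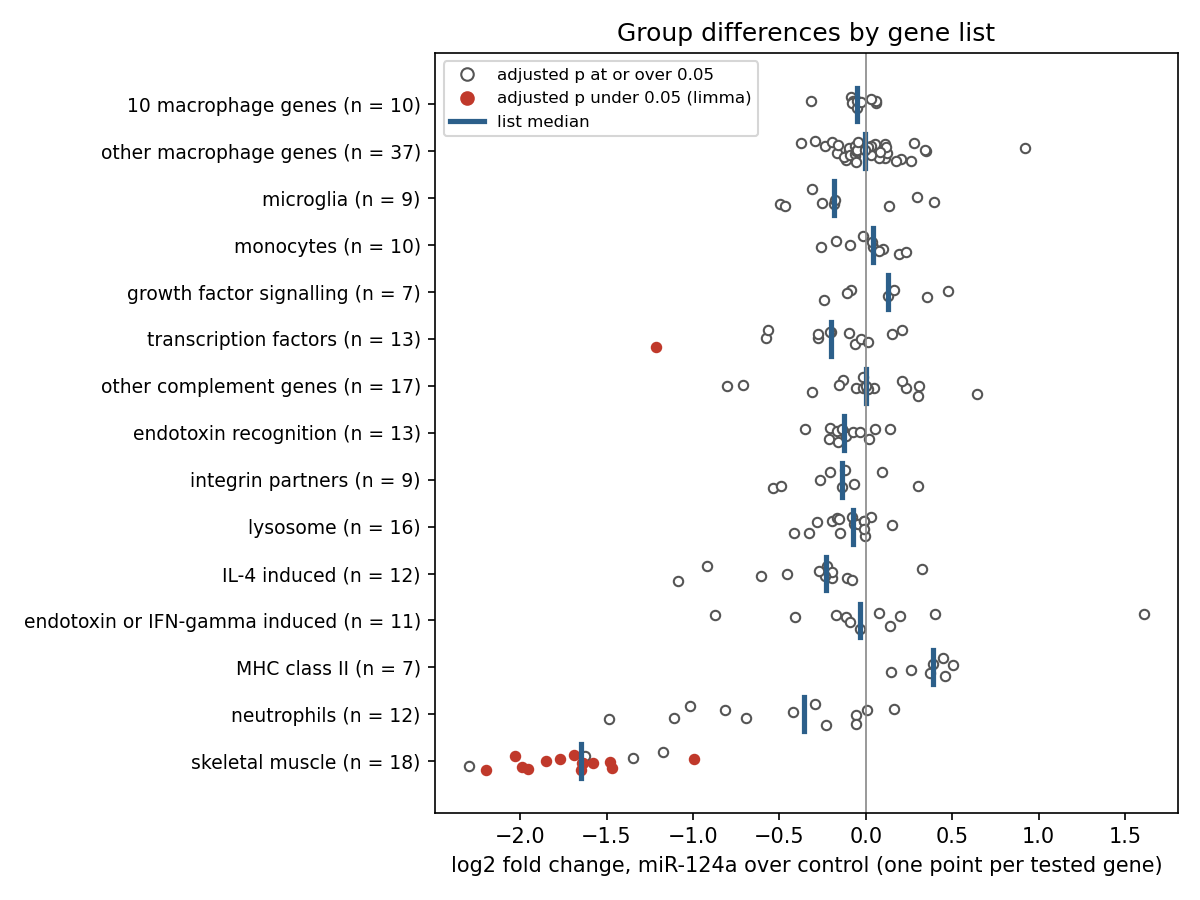
Log2 fold changes, miR-124a over control, of the tested genes of 15 lists, 1 point per gene; filled points have an adjusted p under 0.05 (limma) and vertical bars are list medians. The macrophage genes lie around 0 with none past the threshold, while 14 of 18 skeletal muscle genes and Runx1 lie past it on the lower side in the fit of all 6 tumours.

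Genes of antigen presentation by MHC class II, which macrophages, dendritic cells and B cells share, separated 1 tumour from the rest. All 7 were highest in miR-124a 3, and 6 of 7 were lowest in miR-124a 2. H2-Ab1, a class II chain, had levels of 2.83, 2.59 and 3.17 in the controls and of 2.67, 2.38 and 4.91 in the miR-124a tumours. Ciita, the activator of class II genes, had -1.77, -2.37 and -1.16 in the controls and -1.69, -2.62 and 0.34 in the miR-124a tumours. Their log2 fold changes of 0.46 ± 0.65 and 0.45 ± 0.75 did not pass, nor did any of the 7, 0 of which had an unadjusted p under 0.05 (limma, adjusted p = 0.680 and 0.727). The median over the list was 0.39 with all 7 values above 0, and -0.38 with all 7 below 0 when miR-124a 3 was left out. Cxcl9 and Cxcl10, interferon-induced chemokines, were highest in miR-124a 3 as well, at 1.76 and 2.83 against at most -1.13 and 0.99 in the other tumours. In the same tumour the 10 macrophage genes had a median of 0.0038 relative to the control mean. Of 11 tested genes that endotoxin or interferon gamma induces, Cxcl9 and Cxcl10 included, none passed and none did at an unadjusted p under 0.05, at a median of -0.04. Il1b had the smallest p, at -0.87 ± 0.49 (adjusted p = 0.297).

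**Figure D5:**
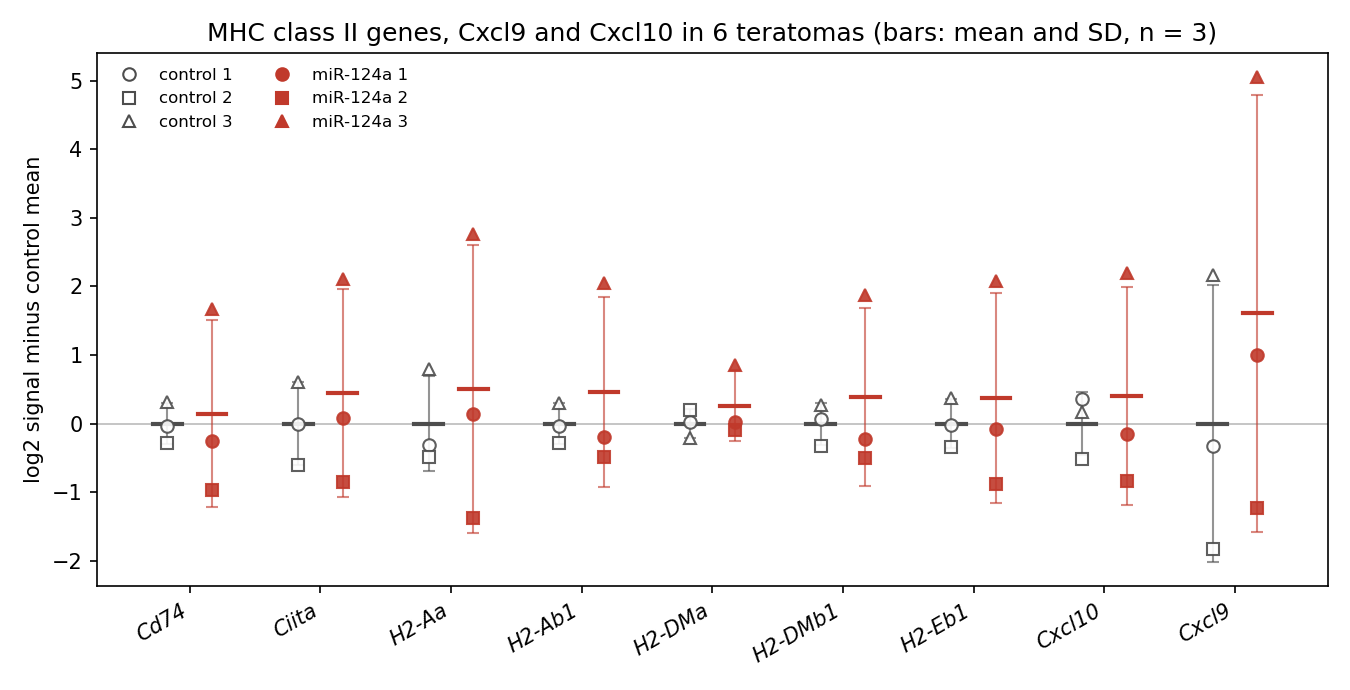
MHC class II genes, Cxcl10 and Cxcl9 in each tumour, on the vertical axis as log2 signal minus the control mean of the gene; open symbols are control and filled symbols miR-124a tumours, bars give the mean and SD (n = 3 per group). The filled triangle, miR-124a 3, is the highest point of every gene shown.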

How the data were processed

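Per the file headers, the authors scanned 1-colour Cy3 Agilent arrays and deposited spot intensity from Feature Extraction 11.5.1.1, after its own background and spatial correction, and not scaled between arrays. The authors' deposited value table holds log2 values with column medians of -3.07 to -2.97; they differed from log2 processed intensity by a constant per array (SD of at most 0.00319), so their scale and direction are those of signal, with no centring per probe. What made that table is not stated in these sources. Flagged outliers removed 22 of 56605 probes, and 0 spots were saturated. Spots of a probe were averaged, log2 taken and the array's 75th percentile subtracted. Probes entered the test (35719) when either group had them well above background in all 3 of its tumours, and a gene was its brightest tested probe. Names came from accessions of the GRCm38.p6 RefSeq table where it held them (32979 probes), from symbols (10223) or older symbols (520); 12861 kept the name in the file. The comparison used lmFit and eBayes of limma 3.58.1 (R 4.3.3) without covariates. The p-values were adjusted by Benjamini-Hochberg over 22946 genes. The fit was also run on simulated data, drawn independently for each gene and so without the differences between tumours that genes share here. This checked the working of the fit and not the calls. Values for second probes come from the same fit over all tested probes.

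The 10 genes and the gene lists were chosen with earlier results of these data known. Named genes are the 10, up to 4 of each list described with the smallest p, and the 8 most like in pattern; Il34, Lyz1, Itgb2, Tlr4, Spi1, Irf8 and Cxcl10 were named after their values were seen. The alternatives were quantile scaling, normexp (offset 50) with quantile scaling, the authors' table, no dim-probe filter or a stricter one requiring all 6 arrays, probes averaged per gene, a replicate block, trend with robust estimation, array weights and leaving out each tumour. The number of arrays limits the precision. Figures were drawn with matplotlib 3.10.9.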

Additional observations from a re-analysis of the deposited data

How the results depend on the processing

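No macrophage gene passed in any of 150 fits over 15 alternatives, the lowest adjusted p being 0.190 (limma), and 9 or 10 of the 10 intervals stayed within 2-fold. The median of the 10 genes ran from -0.14 to 0.11 when a tumour was left out, the highest value being that without control 1. Cd14 kept its direction in all 15, from -0.56 to -0.17, and the other 9 genes, each close to 0, changed sign in 19 fits, 14 of which leave out a tumour. With quantile scaling Lyz2 had 0.15, and with normexp and quantile scaling together Lyz2 had 0.15 and Csf1r 0.015. With probes averaged per gene Lyz2 had 0.033, and with array weights Itgam had -0.012. Leaving out a tumour gave -0.16 to 0.023 for Cd68, -0.16 to 0.11 for Adgre1, -0.087 to 0.13 for C1qa, -0.18 to 0.049 for C1qb, -0.040 to 0.16 for C1qc, -0.17 to 0.15 for Mrc1, -0.043 to 0.14 for Itgam and -0.18 to 0.10 for Lyz2.

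Over all genes the count of 730 became 1540 with normexp and quantile scaling together (62.5% lower, against 84.2%; quantile scaling alone gave 847, 77.6% lower), 1588 with trend and robust estimation, 81 of 37001 without a filter on dim probes, and 0 to 361 when a tumour was left out, where fewer samples were tested. The cause of the other changes was not tested. With the replicate block it was 0 (4956 at an unadjusted p under 0.05); the block changed no call of the 10 genes. Deviations of tumours with the same number correlated at -0.16, -0.04 and -0.06, and those of tumours with unlike numbers at -0.21 to 0.34. No pattern shared by tumours of the same number was seen. With 3 tumours per group such values cannot decide whether the numbers pair the tumours. Among lists with no gene called, trend and robust estimation called 2 integrin, 1 lysosome and 2 neural genes, and normexp with quantile scaling 2 integrin, 1 growth factor, 1 fibroblast and 2 neural genes. Quantile scaling alone called 1 neural gene, averaging probes 1 integrin gene, and leaving out miR-124a 3 called 1 neutrophil gene.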
